A study of Homo sapiens with 6 samples.

Results

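The proteasome genes are the rows of the gene table whose symbol begins with PSMA, PSMB, PSMC, PSMD, PSME, PSMF or PSMG and a number, together with POMP. Of 20348 genes in the table, 51 matched. PSMC3IP and PSME3IP1 matched by name alone, since they encode partners of other proteins, PSME3 in the case of PSME3IP1, rather than proteasome parts. This leaves 49 subunits and factors. They were measured by RNA-seq in MV4-11, an established human acute myeloid leukemia (AML) cell line, in 3 untreated samples (Ctrl) and in 3 samples given WNK463, an inhibitor of WNK kinases, at 1 μM over 48 h. By the labels the groups differed only in the treatment, and every value describes 1 cell line at 1 dose and 1 time. The labels do not say that the 3 samples of a group came from separate cultures, so the p-values measure the spread between these samples, which may be technical.

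The proteasome is the protease that degrades proteins tagged with ubiquitin. Its core particle is a barrel of alpha and beta rings, and 3 kinds of beta subunit carry the active sites. A regulatory particle, built from a base with ATPases and a lid, binds the ends of the barrel, recognizes ubiquitin chains, unfolds the substrate and feeds it into the core. In blood cells, and wherever interferon acts, the inducible subunits PSMB8, PSMB9 and PSMB10 can take the place of the constitutive PSMB5, PSMB6 and PSMB7 to form the immunoproteasome, which supplies peptides for antigen presentation. The 49 genes comprise 14 core subunits, 17 regulatory subunits, the 3 immunoproteasome subunits, 5 activators or inhibitors, 8 assembly factors and 2 tissue-specific core subunits.

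Total counts lay between 14915745 and 17411780 per sample, and 11973 genes passed the filter on low counts. All 8 markers of the myeloid leukemia line were detected, although MPO was low (7.47 ± 0.42 CPM in Ctrl and 1.31 ± 0.48 CPM with WNK463, SD, n = 3). Their summed level was between 2179 and 2297 CPM in Ctrl and between 1202 and 1225 CPM with WNK463, mostly through LYZ. Of the 8, 4 fell (LYZ, MPO, CD33 and FLT3), 3 rose (CSF1R by 0.97, HOXA9 by 0.72 and MEIS1 by 0.33 on the log2 scale) and SPI1 did not pass the test. The 15 markers of T cells, B cells, erythroid, epithelial and fibroblast cells were each below 0.77 CPM in every sample, and the 3 erythroid and 3 epithelial markers were at 0 counts. In bulk RNA, fewer cells of a kind and less RNA per cell cannot be told apart. The part that a shift among states of the leukemia cells may have in the values below was not tested.

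Most proteasome genes had lower levels in WNK463-treated cells with TMM scaling, and 5 of them turned sign when the counts were scaled by library totals. Of the 48 that passed the filter, 36 fell (75.0%) and 4 rose (8.33%) at an adjusted p below 0.05 in the edgeR quasi-likelihood test with Benjamini-Hochberg adjustment, and 8 did not pass the test. Among all tested genes, 35.3% fell and 35.5% rose. The median log2 fold change was -0.31 over the proteasome genes and 0.02 over all tested genes. Highly expressed genes fell more often in general, as the 2994 tested genes with the highest mean log CPM had 51.3% lower and 27.5% higher, with a median of -0.14. Of the 33 proteasome genes among these 2994, 28 fell (84.8%) and 1 rose. Of the 15 tested proteasome genes outside them, 8 fell (53.3%) and 3 rose (20.0%), against 35.3% and 35.5% of all tested genes. The shares among all genes outside the 2994 are not given here. The changes were moderate in size, as 12 genes fell by at least 0.5 on the log2 scale, against 17.8% of all tested genes, and PSMC3 alone fell by at least 1, against 5.55%. The WNK463 samples lay entirely below the Ctrl samples for 35 genes and entirely above for 4, against 36.4% and 37.1% of all tested genes.

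**Figure D1:**
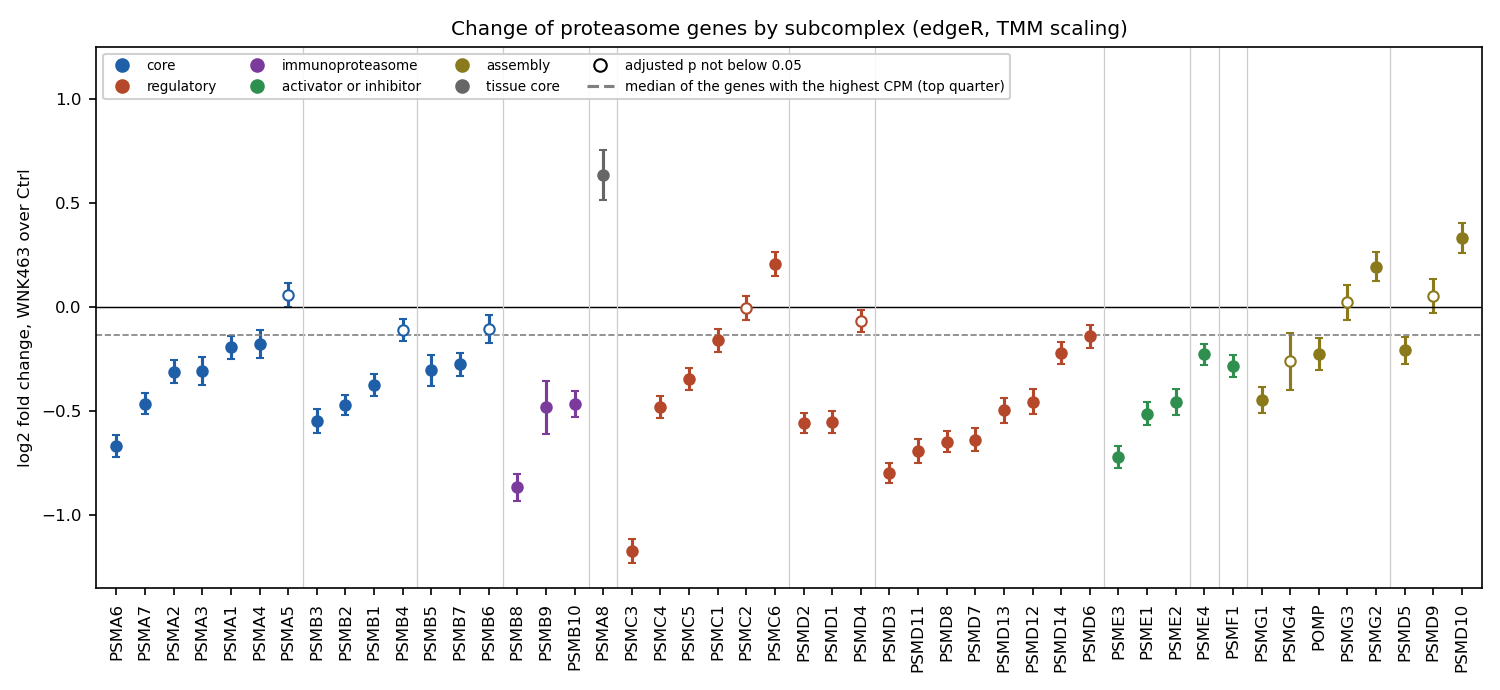
Log2 fold change of the 48 tested proteasome genes with WNK463 (vertical axis, edgeR with TMM scaling), in order of subcomplex (horizontal axis) and colored by class. Bars are standard errors, open points did not pass the test, and the dashed line is the median of the 2994 genes with the highest CPM (-0.14). Most points lie below the line, from PSMC3 at -1.17 to PSMA8 at 0.64. With scaling by total counts, 5 points slightly below 0 (PSMB4, PSMB6, PSMC2, PSMD4 and PSMD6) turn to above 0.

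How many genes fell depended on how the libraries were scaled. These values use TMM, which sets the bulk of genes level between samples. When the counts were scaled by library totals alone, the median of all genes shifted up by 0.15 on the log2 scale, 25 proteasome genes fell and 7 rose, and the split over all tested genes moved from 35.3% lower and 35.5% higher to 26.1% and 46.1%. With limma on log2(TPM + 1) values, 22 fell and 6 rose, against 23.3% and 43.7% of all genes. With the median of all genes subtracted, the proteasome median was -0.32 under TMM and total counts and -0.31 on the TPM scale. Subtracting it removes a scaling factor per library, so TMM and total counts had to match here, which does not test the scaling. Of the 48 genes, 41, 41 and 42 lay below the median of all genes. By definition about as many genes lie below it as above (5986 of 11973 under TMM). The 2994 genes with the highest CPM had a lower median under TMM (-0.14). The 25 and 22 genes that fell under these scalings all belonged to the 36.

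Summed over the 49 genes, proteasome RNA went from 5971, 5783 and 5796 CPM in Ctrl to 4362, 4478 and 4507 CPM with WNK463, a difference of -23.9%. The groups did not overlap in this sum. Summed as TPM, which weigh each gene by length and carry no TMM factor, the difference was -12.6% (7692 ± 96.7 against 6726 ± 199 TPM, SD, n = 3). The CPM use TMM factors, from 0.944 to 0.951 in Ctrl and from 1.05 to 1.06 with WNK463. These factors raise CPM in Ctrl and lower them with WNK463. The gap between the CPM and TPM differences therefore reflects library scaling as well as length. Between classes, the summed CPM differed by -36.0% for the immunoproteasome, -28.1% for activators and inhibitors, -27.3% for the regulatory particle, -19.5% for the core and -5.81% for assembly factors. As TPM the differences were -25.8%, -18.2%, -17.2% and -8.57% in the same order for the first 4 classes, and the assembly factors differed by 4.04%, the other way. For each class, including the turn of the assembly factors, the step from CPM to TPM likewise changes the scaling along with the length weighting.

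**Figure D2:**
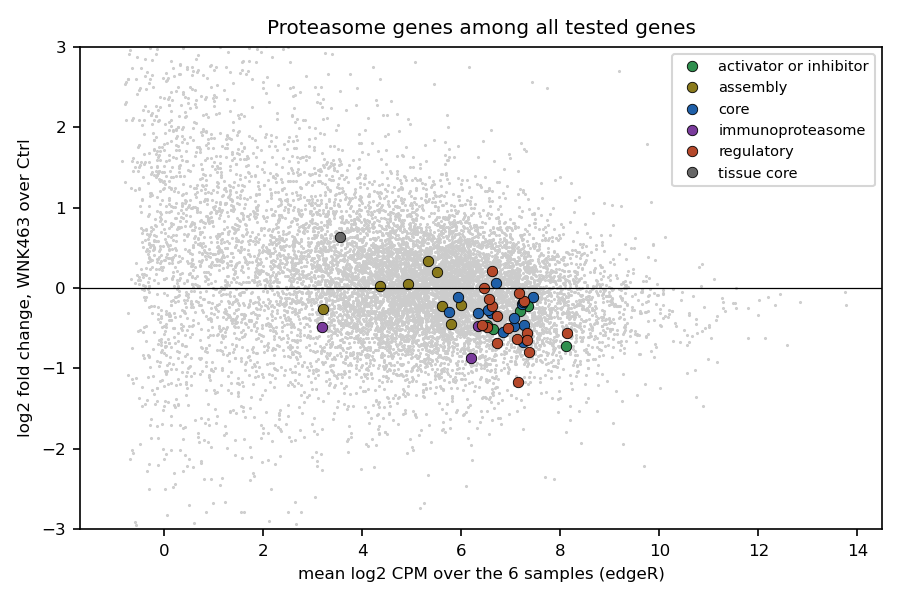
Log2 fold change with WNK463 (vertical axis) against mean log2 CPM over the 6 samples (horizontal axis) for all tested genes (grey) and the 48 proteasome genes (colored by class). The axis is limited to 3 in both directions, which leaves out 139 grey points. Proteasome genes sit mostly at high CPM and below 0 under TMM scaling, while PSMA8 stands above 0 at low CPM. Scaling by total counts raises the median of all genes by 0.15.

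Across the 48 genes, a higher mean CPM went with a lower fold change (Pearson's r = -0.45, Spearman's rho = -0.41). Over all 11973 tested genes the same relation had r = -0.28 and rho = -0.24. These are descriptions across genes that share the same 6 libraries.

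Promoters of 3 genes are shown because they mark the ends of the range and a neighbouring pair with changes of opposite sign. PSMC3 had the smallest p among proteasome genes that fell, and PSMA8 the smallest p among those that rose. PSMB9 starts near TAP1, which lies on the other strand. The sequences are the parts outside annotated exons of the 250 bases before the RefSeq start (build GRCh38.p14), 5′ to 3′ on the strand of the gene. Capitals mark matches, on either strand, to 6 motifs: TGACNNNGC (ARE, bound by NRF1 and NRF2), CCAAT, the interferon regulatory factor element (IRF), CCGGAAG (ETS), GGGCGG (SP1) and TTTGGCGC (E2F).
PSMC3, chr11:47426474-47426689, minus strand, with 1 CCAAT and 3 SP1 matches: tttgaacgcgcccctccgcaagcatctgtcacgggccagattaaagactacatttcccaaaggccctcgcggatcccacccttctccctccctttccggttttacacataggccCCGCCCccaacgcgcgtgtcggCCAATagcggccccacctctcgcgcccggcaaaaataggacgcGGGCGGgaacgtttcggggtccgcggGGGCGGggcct
PSMA8, chr18:26133619-26133851, plus strand, with 1 ETS match: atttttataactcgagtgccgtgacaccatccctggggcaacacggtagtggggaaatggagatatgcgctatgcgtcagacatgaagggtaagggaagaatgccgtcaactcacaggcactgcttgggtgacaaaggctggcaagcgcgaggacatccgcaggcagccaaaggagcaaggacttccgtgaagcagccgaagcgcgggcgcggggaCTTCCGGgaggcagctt
PSMB9, chr6:32853979-32854147, plus strand, with 1 ARE and 1 SP1 match: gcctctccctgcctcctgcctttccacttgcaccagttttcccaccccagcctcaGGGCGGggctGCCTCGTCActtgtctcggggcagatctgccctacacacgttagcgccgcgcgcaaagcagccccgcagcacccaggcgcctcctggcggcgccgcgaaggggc

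The motifs were counted in the full 250 bases before 52 RefSeq starts, which belong to 43 of the 49 genes, and before 35116 starts in all. The ARE letters stood in 25.0% of the proteasome windows and 10.9% of all windows. ETS letters stood in 23.1% against 8.52%, SP1 letters in 59.6% against 42.6%, CCAAT in 36.5% against 32.0%, IRF letters in 9.62% against 3.02%, and E2F letters in 1.92% against 0.55%. The 13 genes with ARE letters had a median log2 fold change of -0.45, against -0.31 for the 29 tested genes without. The 12 genes with ETS letters had a median of -0.23, against -0.46 for the 30 without. For SP1 letters the medians were -0.45 in 26 genes with and -0.29 in 16 without. For CCAAT they were -0.33 in 18 with and -0.37 in 24 without, and for IRF letters -0.26 in 5 and -0.34 in 37. E2F letters stood before 1 gene, PSMD9 (0.05, against a median of -0.34 without). These differences between medians were not tested. A match describes letters only and was not tested for binding.

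The core particle had 11 of 14 subunits lower and 0 higher in edgeR under TMM (0 higher also in DESeq2 and at an unadjusted p below 0.05). Under total counts, 6 were lower and 1 higher. Among all tested genes, 35.3% fell and 35.5% rose under TMM, and 26.1% and 46.1% under total counts. Of the 2994 genes with the highest CPM, 51.3% fell under TMM. The median log2 fold change of the core was -0.30 under TMM. In the alpha ring, which gates the entry to the barrel, 6 of 7 subunits fell under TMM, whereas 3 fell (PSMA2, PSMA6 and PSMA7) and 1 rose both under total counts and on the TPM scale. PSMA6 fell the most, from 191, 177 and 189 CPM in Ctrl to 111, 120 and 120 CPM with WNK463 (log2 fold change -0.67 ± 0.05 SE, adjusted p = 3.1e-09), so the groups lay far apart. PSMA7 (-0.46), PSMA2 (-0.31), PSMA3 (-0.31), PSMA1 (-0.19) and PSMA4 (-0.18) fell by less. PSMA4 was lower only on average, since its highest WNK463 sample (151 CPM) lay above its lowest Ctrl sample (146 CPM), and it no longer passed without Ctrl replicate 3 or without WNK463 replicate 1 or 3. PSMA5 did not pass the test (98.1, 98.4 and 107 CPM in Ctrl against 105, 110 and 101 CPM, log2 fold change 0.06 ± 0.06 SE, adjusted p = 0.36), although it passed as higher under total counts (0.21) and on the TPM scale (0.23). In GENCODE 29, PSMA6 shares 919 exon bases with AL121594.1 on the same strand and has 4 named pseudogenes, and PSMA2 shares 781 with AC010132.3 and has 3, so their counts are less certain.

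Of the 4 structural beta subunits, which complete the beta ring without an active site, 3 fell under TMM, against 35.3% of all tested genes. PSMB3 went from 145, 133 and 132 CPM to 88.6, 93.4 and 99.1 CPM (-0.55 ± 0.06 SE), and PSMB2 (-0.47) and PSMB1 (-0.37) also fell. PSMB4, the core subunit with the highest TPM, had 366 ± 17.0 TPM in Ctrl and 388 ± 18.1 TPM with WNK463. Its log2 fold change of -0.11 did not pass the test (adjusted p = 0.081), and its sign turned under total counts, but it passed as lower without Ctrl replicate 2 (-0.16, adjusted p = 0.033) or WNK463 replicate 3 (-0.15, adjusted p = 0.039).

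Of the 3 constitutive catalytic subunits, 2 fell under TMM, against 35.3% of all tested genes. PSMB5, the chymotrypsin-like subunit and the main target of bortezomib, fell from 62.1, 62.5 and 52.9 CPM to 44.2, 50.3 and 49.3 CPM (-0.30 ± 0.07 SE, adjusted p = 0.0014). PSMB7, the trypsin-like subunit, fell from 108, 96.0 and 101 CPM to 85.6, 84.5 and 82.2 CPM (-0.27 ± 0.06 SE, adjusted p = 3e-04). PSMB6, the caspase-like subunit, had 67.7, 60.8 and 60.4 CPM in Ctrl and 54.5, 59.4 and 61.7 CPM with WNK463, and the groups overlapped (-0.11 ± 0.07 SE, adjusted p = 0.16). The calls of PSMB5 and PSMB7 rested on the scaling, since neither passed under total counts (adjusted p = 0.086 and 0.055 in edgeR) or on the TPM scale (adjusted p = 0.30 and 0.18 in limma).

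All 3 immunoproteasome subunits fell under TMM, with a median log2 fold change of -0.48, while 35.3% of all tested genes fell. PSMB8, the inducible counterpart of PSMB5, fell from 101, 93.1 and 88.6 CPM to 47.5, 52.8 and 54.6 CPM (-0.87 ± 0.07 SE, adjusted p = 2.1e-09). It ranked 972nd of 11973 tested genes by p. PSMB10, the counterpart of PSMB7, fell from 103, 91.2 and 88.0 CPM to 67.1, 71.3 and 65.6 CPM (-0.47 ± 0.06 SE, adjusted p = 3.7e-06). PSMB9, the counterpart of PSMB6, was the least abundant of the 3 per length (19.6 ± 1.55 TPM in Ctrl) and fell from 11.3, 9.74 and 10.4 CPM to 7.79, 6.98 and 7.79 CPM (-0.48 ± 0.13 SE, adjusted p = 0.0024). The groups did not overlap for any of the 3. PSMB8 and PSMB10 also passed under total counts and on the TPM scale, whereas PSMB9 passed under total counts (-0.33, adjusted p = 0.025) but not on the TPM scale (-0.17, adjusted p = 0.099). PSMB8 shares 618 exon bases with the antisense gene PSMB8-AS1 and 139 with PSMB9, and whether reads were counted by strand is not given in the sources used here.

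**Figure D3:**
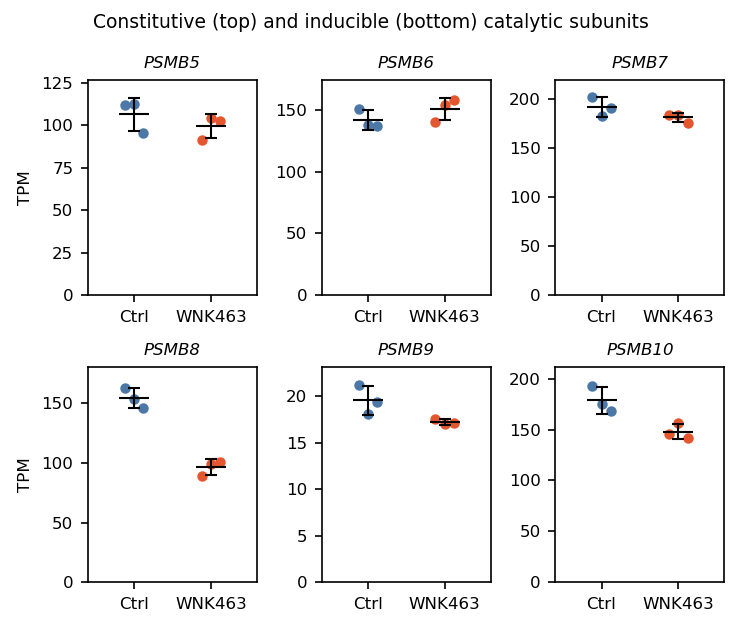
TPM of the 6 catalytic subunits (vertical axes, each from 0) in the 3 Ctrl and 3 WNK463 samples (horizontal axis), with points for samples and bars for the mean and SD. PSMB8 fell from 154 ± 8.63 to 96.6 ± 6.75 TPM and the samples of the groups lie apart, while the groups overlap for PSMB5, PSMB6 and PSMB7.

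Per length, PSMB8 was more abundant than its constitutive counterpart in Ctrl, PSMB10 slightly less and PSMB9 far less. Within a sample, PSMB8 TPM was 1.46, 1.37 and 1.53 times that of PSMB5 in Ctrl and 0.971, 0.954 and 0.989 times with WNK463. The PSMB10 to PSMB7 ratio was 0.954, 0.956 and 0.877 in Ctrl and 0.791, 0.849 and 0.804 with WNK463. The PSMB9 to PSMB6 ratio was 0.140, 0.131 and 0.142 in Ctrl and 0.125, 0.110 and 0.108 with WNK463. Each of the 3 ratios was lower in all WNK463 samples than in any Ctrl sample, with differences of -0.58, -0.19 and -0.27 on the log2 scale in this order. Such ratios do not depend on the scaling between samples. The exact two-sided permutation test gave p = 0.10 for each of the 3 pairs (0.10 after Benjamini-Hochberg adjustment), the smallest that 3 against 3 samples allow. Summed over the 3 subunits, the inducible to constitutive ratio of TPM was 0.812, 0.801 and 0.787 in Ctrl and 0.606, 0.616 and 0.596 with WNK463.

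**Figure D4:**
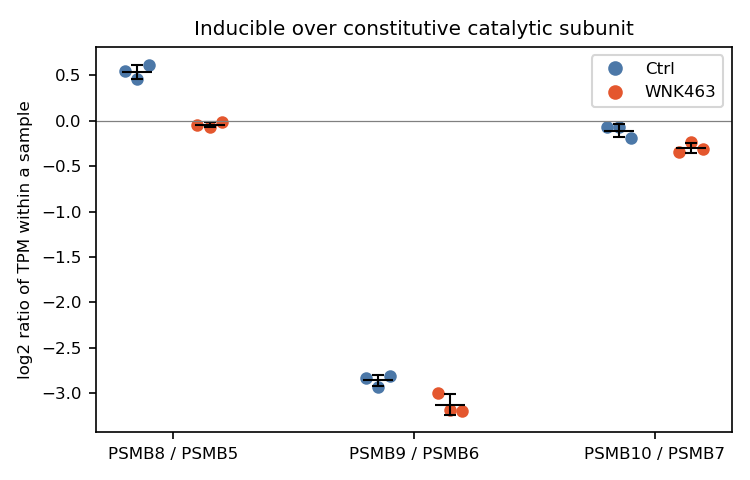
Log2 ratio of TPM of each inducible subunit to its constitutive counterpart within a sample (vertical axis) for the 3 pairs (horizontal axis), with points for samples and bars for the mean and SD of Ctrl and WNK463. All WNK463 points lie below the Ctrl points of the same pair, by 0.58 on average for PSMB8 to PSMB5.

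The immunoproteasome genes PSMB8 and PSMB9 lie close together on chromosome 6 with the genes of the peptide transporter TAP. In GENCODE 29 (GRCh38), TAP2 spans 32821833 to 32838780 and PSMB8 32840717 to 32844703, both on the minus strand. PSMB9 spans 32844136 to 32859585 on the plus strand, and TAP1 lies within this span, at 32845209 to 32853978 on the minus strand. The RefSeq start of PSMB9 lies 488 and 1431 bases from the 2 starts of TAP1, which point away from it. PSMB8, PSMB9 and TAP2 fell whereas TAP1 rose, as TAP2 had a log2 fold change of -1.01 ± 0.08 SE (65.5 ± 6.56 to 32.4 ± 1.29 CPM, SD, n = 3) and TAP1 one of 0.21 ± 0.06 SE (46.4 ± 0.34 to 53.8 ± 2.11 CPM). The window of the nearer TAP1 start held 2 IRF matches, 1 CCAAT and 1 SP1 match, that of the farther start 1 ETS and 1 SP1 match and no IRF match, and the PSMB8 windows held none of the 6 motifs.

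The regulatory particle had 14 of 17 subunits lower and 1 higher under TMM, and 11 lower and 2 higher under total counts. Among all tested genes, 35.3% fell and 35.5% rose under TMM, and 26.1% and 46.1% under total counts. Of the 2994 genes with the highest CPM, 51.3% fell under TMM. The median log2 fold change of the regulatory particle was -0.48 under TMM. Its 6 ATPases, which unfold the substrate as a ring, were the most varied, from -1.17 to 0.21. PSMC3 changed the most of all proteasome genes, from 211, 190 and 188 CPM in Ctrl to 85.3, 92.0 and 84.1 CPM with WNK463 (-1.17 ± 0.06 SE, adjusted p = 7.4e-12), and ranked 227th of 11973 genes by p. Per length it was the most abundant ATPase in Ctrl (266 ± 19.4 TPM) but not with WNK463 (135 ± 9.64 TPM), where PSMC1 stood highest (173 TPM). PSMC4 (-0.48), PSMC5 (-0.34) and PSMC1 (-0.16) fell by less. PSMC6 rose from 90.8, 85.9 and 95.9 CPM to 102, 110 and 104 CPM (0.21 ± 0.06 SE, adjusted p = 0.0033), with no overlap between groups. PSMC2 had 83.9, 86.8 and 92.9 CPM in Ctrl and 83.4, 90.2 and 89.5 CPM with WNK463, so the groups overlapped (-0.00 ± 0.06 SE, adjusted p = 0.96). Under total counts PSMC2 passed as higher (0.15, adjusted p = 0.031). PSMC1 did not pass without WNK463 replicate 1, under total counts (-0.01, adjusted p = 0.91) or on the TPM scale (0.07, adjusted p = 0.39). It has 13 named pseudogenes and shares 4671 exon bases with the antisense gene NRDE2, so its counts are less certain, as are those of PSMC5, which shares 874 exon bases with FTSJ3 in antisense.

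In the base without the ATPases, the scaffold subunits PSMD2 and PSMD1 fell and the ubiquitin receptor PSMD4 did not pass the test. PSMD2 went from 354, 327 and 321 CPM to 226, 226 and 230 CPM (-0.56 ± 0.05 SE, adjusted p = 1e-08). PSMD1 went from 181, 198 and 197 CPM to 136, 129 and 127 CPM (-0.55 ± 0.05 SE). PSMD4 had 157, 145 and 136 CPM in Ctrl and 137, 142 and 139 CPM with WNK463 (-0.07 ± 0.05 SE, adjusted p = 0.28). ADRM1, another ubiquitin receptor of the base, whose symbol does not match the rule, fell by 0.37 on the log2 scale (adjusted p = 5.6e-06).

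All 8 lid subunits with a PSMD symbol fell under TMM, with a median log2 fold change of -0.57. Under total counts 6 of them fell, and PSMD6 turned to 0.01. Of all tested genes, 35.3% fell under TMM and 26.1% under total counts. PSMD3 fell the most, from 214, 211 and 205 CPM to 123, 119 and 121 CPM (-0.80 ± 0.05 SE, adjusted p = 8.1e-11), and the samples within a group differed little. PSMD11 (-0.69), PSMD8 (-0.65), PSMD7 (-0.64), PSMD13 (-0.50) and PSMD12 (-0.45) followed. PSMD14, the deubiquitinase that removes ubiquitin chains before the substrate enters, fell by 0.22 on the log2 scale (102, 107 and 108 to 87.0, 92.9 and 91.4 CPM), but did not pass under total counts (-0.07, adjusted p = 0.25) or on the TPM scale (-0.03, adjusted p = 0.66). PSMD6 had the smallest change of the lid (-0.14, adjusted p = 0.028) and did not pass without Ctrl replicate 3 or without WNK463 replicate 1 or 2. SEM1, a small lid subunit outside the symbol rule, fell by 0.63 on the log2 scale (adjusted p = 0.00017). Within a sample, the regulatory to core ratio of summed TPM was 0.873, 0.901 and 0.869 in Ctrl and 0.820, 0.795 and 0.779 with WNK463.

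**Figure D5:**
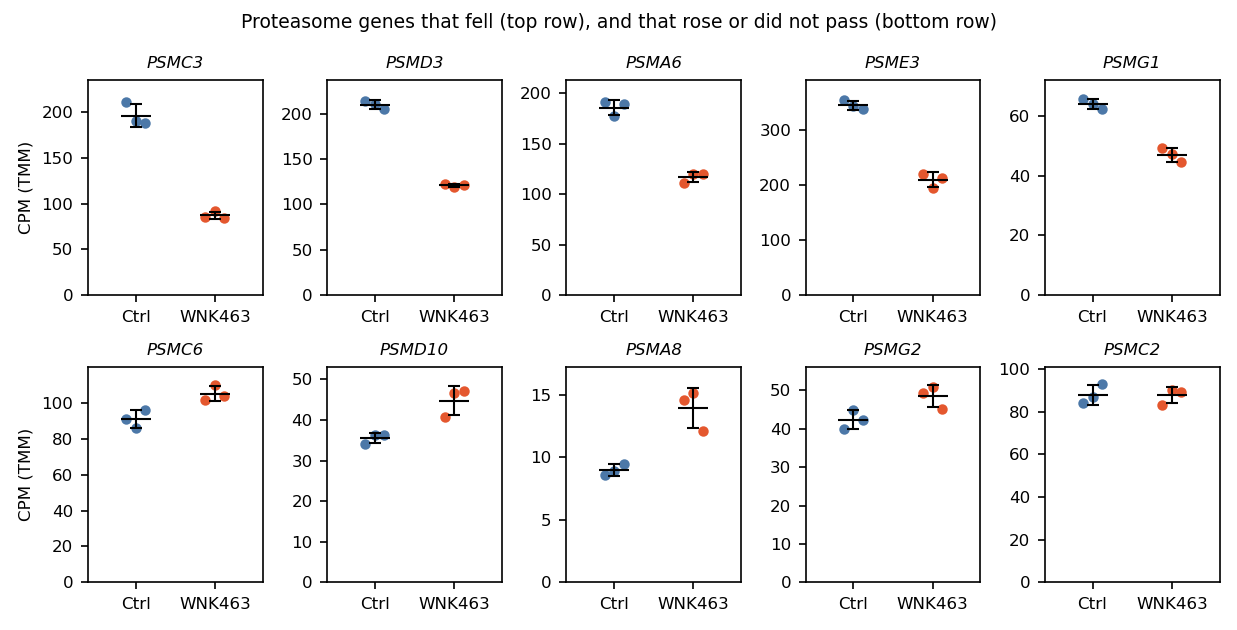
CPM (vertical axes, each from 0, TMM library sizes) of 10 proteasome genes in the 3 Ctrl and 3 WNK463 samples (horizontal axis), with points for samples and bars for the mean and SD. The groups lie apart for PSMC3, PSMD3, PSMA6, PSME3 and PSMG1 (lower) and for PSMC6, PSMD10, PSMA8 and PSMG2 (higher), and overlap for PSMC2.

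All 5 activators or inhibitors fell under TMM, and 4 under total counts, against 35.3% and 26.1% of all tested genes. PSME3 is the nuclear activator that opens the core without ubiquitin and ATP, and it fell from 354, 344 and 338 CPM to 221, 194 and 214 CPM (-0.72 ± 0.05 SE, adjusted p = 8.9e-10). The interferon-inducible pair PSME1 and PSME2 fell by similar amounts (-0.51 ± 0.05 and -0.46 ± 0.06 SE). PSMF1, an inhibitor of the core, and PSME4, the activator PA200, changed less (-0.28 and -0.23). On the TPM scale only PSME1 and PSME3 passed, and PSME2 (-0.25, adjusted p = 0.072), PSMF1 (0.01) and PSME4 (-0.03) did not, while PSME4 did not pass under total counts (-0.07). PSME3 shares 300 exon bases with the antisense gene BECN1, and PSME2 shares 216 with RNF31.

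The assembly factors did not move together. Under TMM, 3 of 8 fell (37.5%), 2 rose (25.0%) and 3 did not pass, against 35.3% lower and 35.5% higher among all tested genes. Both under total counts and on the TPM scale, 1 fell and 3 rose. Among all tested genes, 26.1% fell and 46.1% rose under total counts, and 23.3% fell and 43.7% rose on the TPM scale. The median log2 fold change of the assembly factors, -0.09 under TMM, turned to 0.06 under total counts and to 0.08 on the TPM scale. Of the core chaperones, PSMG1 fell from 65.7, 64.1 and 62.3 CPM to 49.2, 47.2 and 44.6 CPM (-0.45 ± 0.06 SE, adjusted p = 4e-06). Its partner PSMG2 went the other way, from 39.9, 44.9 and 42.3 CPM to 49.3, 50.8 and 45.3 CPM (0.19 ± 0.07 SE, adjusted p = 0.018). This small difference did not pass without Ctrl replicate 1 or without WNK463 replicate 1 or 2, nor in DESeq2. POMP, which helps the beta ring close and mature, fell by 0.23 on the log2 scale (adjusted p = 0.014) but not without WNK463 replicate 1 or under total counts (-0.07, adjusted p = 0.42), and its value was 0.01 on the TPM scale. PSMG3 (0.02 ± 0.08 SE) and PSMG4 (-0.26 ± 0.14 SE) did not pass the test. PSMG4 passed as lower without WNK463 replicate 3 (-0.39, adjusted p = 0.026) and was at -0.16 without WNK463 replicate 2.

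Among the chaperones of the base, PSMD10, also known as gankyrin, rose from 34.1, 36.4 and 36.2 CPM to 40.6, 46.6 and 47.1 CPM (0.33 ± 0.07 SE, adjusted p = 5.6e-04), with all WNK463 samples above Ctrl. PSMD9 did not pass under TMM (0.05 ± 0.08 SE) but passed as higher under total counts (0.20, adjusted p = 0.037) and on the TPM scale (0.31, adjusted p = 0.027). PSMD5 fell by 0.21 on the log2 scale (adjusted p = 0.0083), but not without Ctrl replicate 2, under total counts (-0.06, adjusted p = 0.44) or on the TPM scale (adjusted p = 0.33). Its TPM varied widely in Ctrl (39.5, 103 and 38.1), whereas its counts did not (1040, 1073 and 1106). PAAF1, another chaperone of the base outside the symbol rule, fell by 0.19 on the log2 scale (adjusted p = 0.043).

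Of the core subunits known from single tissues, PSMA8, an alpha subunit of the testis, was detected and PSMB11, a beta subunit of the thymus, was not. PSMA8 rose from 8.58, 8.92 and 9.51 CPM to 14.6, 15.2 and 12.1 CPM (0.64 ± 0.12 SE, adjusted p = 1.2e-04), and no proteasome gene rose more. At 9.37 ± 0.58 TPM in Ctrl and 16.6 ± 2.09 TPM with WNK463, it stayed far under PSMA7, the most abundant alpha subunit in Ctrl (344 TPM). PSMB11 had 0 counts in all 6 samples, which allows up to 3 counts per sample. PSMC3IP, a recombination cofactor (-0.84 ± 0.21 SE), and PSME3IP1, a partner of PSME3 (-0.37 ± 0.05 SE), which matched by name alone, both fell.

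The genes that act with the proteasome did not share one direction. Of 46 such genes, 21 rose and 17 fell under TMM, against 35.5% and 35.3% of all tested genes. Under total counts, 26 rose and 13 fell, against 46.1% and 26.1% of all tested genes. Among 16 cofactors, which bring substrates to the proteasome, edit ubiquitin chains or handle the particle, 8 fell and 5 rose under TMM. Scaled by total counts, 7 fell and 8 rose. The 16 include PSME3IP1 (-0.37), which was left out of the 49 proteasome genes. UBQLN2, a shuttle for ubiquitylated proteins, had the lowest log2 fold change (-0.79), and ZFAND2A, a stress-induced proteasome partner, the highest (0.95). The deubiquitinases USP14 (-0.49) and UCHL5 (-0.41) and the unfoldase VCP (-0.47) fell, whereas ECPAS (0.55), a proteasome scaffold, and AKIRIN2 (0.37), which brings proteasomes into the nucleus, rose. Of 6 ubiquitin and E1 genes, 3 fell and 1 rose under TMM, and 2 fell and 3 rose under total counts. UBA1, the main E1 enzyme, had the lowest value (-0.60) and UBA6, the other E1, the highest (0.30).

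NFE2L1 encodes NRF1, the factor that raises proteasome genes when proteasome activity is short. Its RNA did not pass the test (-0.05 ± 0.05 SE, adjusted p = 0.36). The NRF1 list holds 8 genes, among them NFE2L2, which encodes the related factor NRF2, and the small MAF partners MAFF, MAFG and MAFK. Of the 8, 6 rose and 0 fell in edgeR under TMM (0 also at an unadjusted p below 0.05). The counts were the same under total counts. Among all tested genes, 35.5% rose and 35.3% fell under TMM, and 46.1% rose and 26.1% fell under total counts. Those of the 8 that rose include DDI2 (0.35), the protease that cuts NRF1, and NGLY1 (0.31), which removes its glycans. NFE2L2 had the highest value (0.63) and MAFK the lowest (-0.07, not passed). MAFG (0.27) and MAFF (0.51) also rose, MAFF on 52 to 110 counts per sample.

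Of the 13 genes for class I peptide loading and interferon factors, 9 rose and 3 fell under TMM. Under total counts, 9 rose and 2 fell. The shares of all tested genes were 35.5% higher and 35.3% lower under TMM, and 46.1% and 26.1% under total counts. HLA-B (0.53) and B2M (0.55), the chains of the class I molecule, rose, and IRF9 (0.87), a part of the interferon response factor, had the highest value. IRF1, a known activator of immunoproteasome genes, rose by 0.21 on the log2 scale (adjusted p = 0.032). TAP2 had the lowest value (-1.01). The 3 immunoproteasome subunits thus had log2 fold changes below 0 beside class I chain genes above 0, and the difference between these lists was not tested.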

How the data were processed

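RNA-seq was made from 3 Ctrl and 3 WNK463 samples of MV4-11 cells, grouped by the sample labels. The authors deposited 1 table of 20348 genes with estimated counts per gene as whole numbers, not normalized, and TPM. The processing notes name fastp, Bowtie2, HISAT2, StringTie, RSEM, DESeq2 and edgeR and the build GRCh38, with no versions or roles. The table also holds the authors' mean TPM per group, fold changes, p-values and annotations, which were not used. 629 genes have no symbol.

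Counts were tested over all genes with edgeR 4.0.16 (TMM, default filter, quasi-likelihood) in R 4.3.3, without a replicate block, and p-values were adjusted by Benjamini-Hochberg over the 11973 genes tested. A gene is called at an adjusted p below 0.05. Standard errors are absolute log2 fold changes over the root of F. The CPM use TMM library sizes (TMM factors between 0.944 and 0.951 in Ctrl, 1.05 and 1.06 with WNK463). TPM were used for levels between genes and for ratios, which were compared by exact two-sided permutation tests. Counts limit the precision to counting error and sample spread, and the lowest count of a tested proteasome gene was 120. The procedure was tested on simulated data. Alternatives were DESeq2 1.42.0, limma 3.58.1 on log2(TPM + 1) and log2(TPM + 0.1), other scalings, filters and thresholds, the replicate number as a block, and leaving out 1 sample at a time.

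The genes named are the catalytic subunits, the extremes of each class and list, members with a fold change of at least 0.5 on the log2 scale, members that did not pass, and members whose direction turned. Others were named after their values were seen. Members and lists were chosen with earlier results of these data known. Positions and exon overlaps come from GENCODE 29, and promoters from RefSeq. Exon overlaps were named above for some genes only. Antisense genes also share exon bases with PSMD7 (842), PSMD11 (675), PSMD1 (559), PSMG2 (468) and PSMD13 (316). On the same strand, PSMD9 shares 1307 and PSMB10 shares 644. Protein sequences were not used here. 1 gene of the lists is not reported here by name.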

Additional observations from a re-analysis of the deposited data

How the results depend on the processing

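Of 528 combinations of 48 tested genes and 11 alternatives, 470 kept their direction and side of the threshold, 32 lost the call and 7 gained one with the sign kept, and 19 changed sign. Of these 19, 6 also lost the call and 1 (PSMC2 under total counts) gained it. Under total counts the sign changed for PSMB4 (0.042), PSMB6 (0.047), PSMC2 (0.15), PSMD4 (0.085) and PSMD6 (0.012). On the log2(TPM + 1) scale it changed for POMP (0.012), PSMA4 (0.014), PSMB4 (0.084), PSMB6 (0.088), PSMC1 (0.068), PSMC2 (0.090), PSMD4 (0.12), PSMD6 (0.062) and PSMF1 (0.013). Both alternatives shift the median of all genes by 0.15.

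The number of proteasome genes that fell was 22 with limma on log2(TPM + 1), with log2(TPM + 0.1) and without a filter, 12 with a fold of at least 0.5 and 1 with at least 1, and the number that rose was 7 under total counts, 1 with a fold of at least 0.5 and 0 with at least 1. Of the 46 related genes, 9 fell with each of the 3 TPM settings, 4 fell and 8 rose with a fold of at least 0.5, and 1 fell and 0 rose with at least 1. Class medians under total counts and on the TPM scale were -0.15 and -0.10 for the core, -0.33 and -0.31 for the regulatory particle, -0.33 and -0.27 for the immunoproteasome, and 0.059 and 0.078, with the sign changed, for the assembly factors.

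With each sample left out in turn, 32 to 37 genes fell and 3 to 4 rose. 31 of the 36 genes that fell did so in all 6 repeats, the exceptions being POMP, PSMA4, PSMC1, PSMD5 and PSMD6, and 3 of the 4 that rose, the exception being PSMG2. POMP, PSMA4, PSMC1, PSMD6 and PSMG2 were lost without WNK463 replicate 1. The core median lay between -0.34 and -0.26. PSMC2 ranged from -0.042 to 0.030, PSMD9 from -0.016 to 0.10 and PSMG3 from -0.021 to 0.036.

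The replicate numbers do not pair the samples, with correlations of same-numbered samples of 0.02, -0.01 and -0.05. With the number as a block, 36 proteasome genes fell and 4 rose, and no call changed among them. For the related genes the block gave 20 higher and 16 lower. Depth limits PSMB9 and PSMG4, with 120 to 185 counts per sample, the most.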
